A study of Mus musculus with 6 samples.

Results

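The Reg family of secreted lectins was described in sequenced RNA of mouse duodenum, taken at 6 weeks of age, in 3 control and 3 mutant libraries. Members were the 7 genes Reg1, Reg2, Reg3a, Reg3b, Reg3d, Reg3g and Reg4, taken by symbol from gene tables with 23235 symbols. Each symbol matched 1 row, and all 7 had a usable estimate in each library and passed the filter on low values. The members were chosen by measured values, namely their large spread among libraries and their control and mutant levels, so those values are given here as a description with no test.

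The mutants, named TNint, had the genotype Nkx2.2flox/TN; Villin-Cre/+; Rosa26Tomato/+. Controls 1 and 2 were Nkx2.2flox/+; Rosa26Tomato/+ and control 3 was Nkx2.2flox/+, so the controls also carried a floxed allele but no Cre and no TN allele. TN is known as an allele of the transcription factor Nkx2.2 with its tinman repressor domain altered, and Villin-Cre expresses the recombinase in intestinal epithelium. The groups therefore differed in Cre, in the TN allele carried by every tissue and in the copies of Nkx2.2 left in the epithelium, which cannot be told apart. All animals were on a mixed strain background, and the labels give no litter, cage or sex. The tissue was the 2 cm of duodenum next to the stomach, with all layers of the wall, so fewer cells of a type and less RNA per cell cannot be told apart. Nothing in the labels numbers the animals, so the spread is that between libraries.

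Reg proteins are small secreted C-type lectins with a single carbohydrate-recognition domain. Reg3g and Reg3b are made by intestinal epithelium, including Paneth cells, and kill or bind bacteria near the epithelial surface. Their transcripts are known to be induced by the microbiota through MyD88 and through interleukin 22 acting on Stat3. Reg1, Reg2 and Reg3d are also known as products of pancreatic acinar cells, where Reg1 and Reg2 encode lithostathines. Reg4 is known from enteroendocrine and goblet-type secretory cells.

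In mm9, the build of the files, 6 of the 7 genes lay in 1 cluster of 98 kb on chromosome 6, and Reg4 lay on chromosome 3 (98026079 to 98040671, plus strand). The order along chromosome 6 was Reg3b (78320879 to 78323460, plus strand), Reg3d (78325868 to 78328859, minus), Reg3a (78330703 to 78333833, plus), Reg2 (78355149 to 78358091, plus), Reg1 (78375977 to 78378660, plus) and Reg3g (78416262 to 78418868, minus). Starts and ends are those of the authors' tables, strands are from GENCODE, and all 7 are annotated as protein coding. No other row of the tables lay between Reg3b and Reg3g. The nearest rows outside the cluster were 391 kb before it and 563 kb after it, and the flanking rows Ctnna2, Lrrtm1 and Gm20362 reached at most 0.216, 0.284 and 0.0246 FPKM. FPKM is the number of fragments scaled by transcript length and by the mapped fragments of the library, so it can be compared between genes.

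Promoters are shown for Reg3b and Reg3g, whose levels moved together across the libraries, and for Reg1 and Reg2, the members with the most similar coding sequences, whose levels did not. Each is the 150 bases before the start site in RefSeq (promoter table of GRCm38.p6), 5′ to 3′ on the gene's strand, found as an exact match in mm9. Capitals mark TATAAA and TTCNNNGAA on the gene's strand, the former a TATA box sequence and the latter the core of a Stat binding sequence. The regions are chr6:78320729-78320878 (plus), chr6:78418869-78419018 (minus), chr6:78375827-78375976 (plus) and chr6:78354999-78355148 (plus).
Reg3b: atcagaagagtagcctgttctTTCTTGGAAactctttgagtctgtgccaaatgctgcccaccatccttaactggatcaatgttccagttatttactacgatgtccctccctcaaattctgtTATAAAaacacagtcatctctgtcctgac
Reg3g: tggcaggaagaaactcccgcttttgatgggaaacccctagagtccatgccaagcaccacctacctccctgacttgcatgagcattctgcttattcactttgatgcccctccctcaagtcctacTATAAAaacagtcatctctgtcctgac
Reg1: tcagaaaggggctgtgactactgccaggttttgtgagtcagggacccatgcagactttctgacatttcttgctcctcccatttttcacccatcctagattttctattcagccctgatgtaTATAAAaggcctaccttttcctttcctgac
Reg2: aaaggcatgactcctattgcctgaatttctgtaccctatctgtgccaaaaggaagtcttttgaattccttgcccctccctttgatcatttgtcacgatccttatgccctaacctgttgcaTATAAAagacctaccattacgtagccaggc

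All 4 of these promoters held TATAAA within 40 to 16 bases before the start site, against 1.99% of 32851 RefSeq promoter windows. Reg3a, Reg3d and Reg4 did not have these letters there. TTCNNNGAA was found in 250 bases of Reg3b and Reg3d, against 7.02% of windows of that length, and in none of the other 5 (this sequence reads the same on both strands, and its matches did not overlap TATAAA). The promoters of Reg3b and Reg3g were 68.4% identical over 250 bases by global alignment, with a shared run of 20 bases. Those of Reg1 and Reg2 were 56.2% identical, and Reg4 was 43.8% to 48.9% identical to the others.

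Coding sequences of the GENCODE transcripts ordered the family differently. Reg1 and Reg2 were the closest pair, at 78.7% identity, followed by Reg3b and Reg3g at 75.9%, Reg3a and Reg3b at 73.8%, and Reg3a and Reg3g at 73.3%. Reg3d was 66.2% to 67.2% identical to the other Reg3 genes. The longest run shared by any transcripts was 35 bases, between Reg3b and Reg3g. No stretch of 50 bases in a member matched another member with up to 2 mismatches. The read length was not among the facts stated in the labels or processing notes.

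Depth, read from the confidence interval of each FPKM value, ran from about 14210000 reads in control 1 to about 25910000 reads in mutant 2. Nkx2-2, the targeted gene, had 1, 1.03 and 1.27 FPKM in controls and 0.748, 0.744 and 0.666 FPKM in mutants. Vil1, a marker of intestinal epithelium, was at 630 to 699 FPKM in the 6 libraries. Control 3 and mutant 3 stood apart, with Xist at 34 and 23.2 FPKM against at most 0.0642 elsewhere, and with the Y-linked gene Uty at 0 and 0.0183 FPKM against 5.07 to 7.15 elsewhere. Pancreatic acinar transcripts were also highest in those libraries for 23 of 26 listed genes, and lowest in control 1 for 25 of 26. Of these 25, Ptf1a tied at 0 FPKM in controls 1 and 2. The range of each member and its difference between groups are also given without control 3 and mutant 3.

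Reg3b, an antibacterial lectin, had 13679, 1256 and 45574 FPKM in control 1, 2 and 3. In mutant 1, 2 and 3 it had 21242, 1308 and 31280 FPKM. It was the highest of all rows in control 3, mutant 1 and mutant 3, and rank 53 and 45 in control 2 and mutant 2. Control 2 and mutant 2 were low and differed by a ratio of 1.04, and the groups overlapped almost completely. The highest library was 36.3 times the lowest. The authors' confidence intervals ran from 1235 to 1277 FPKM in control 2 and from 45445 to 45704 FPKM in control 3, so counting error was small beside the spread.

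Reg3g, which binds peptidoglycan of Gram-positive bacteria, had 4874, 719 and 14181 FPKM in controls and 6435, 734 and 9583 FPKM in mutants. Its libraries fell in the same order as those of Reg3b, with control 3 first, then mutant 3, mutant 1, control 1, mutant 2 and control 2. The highest was 19.7 times the lowest. Without the libraries of high Xist the spread was still 16.9-fold for Reg3b and 8.95-fold for Reg3g over 4 libraries. The ratio of Reg3b to Reg3g was 1.75 and 1.78 in control 2 and mutant 2, and 2.81 to 3.3 in the other 4 libraries. Reg3b was therefore above Reg3g in each library, by less where both were low.

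**Figure D1:**
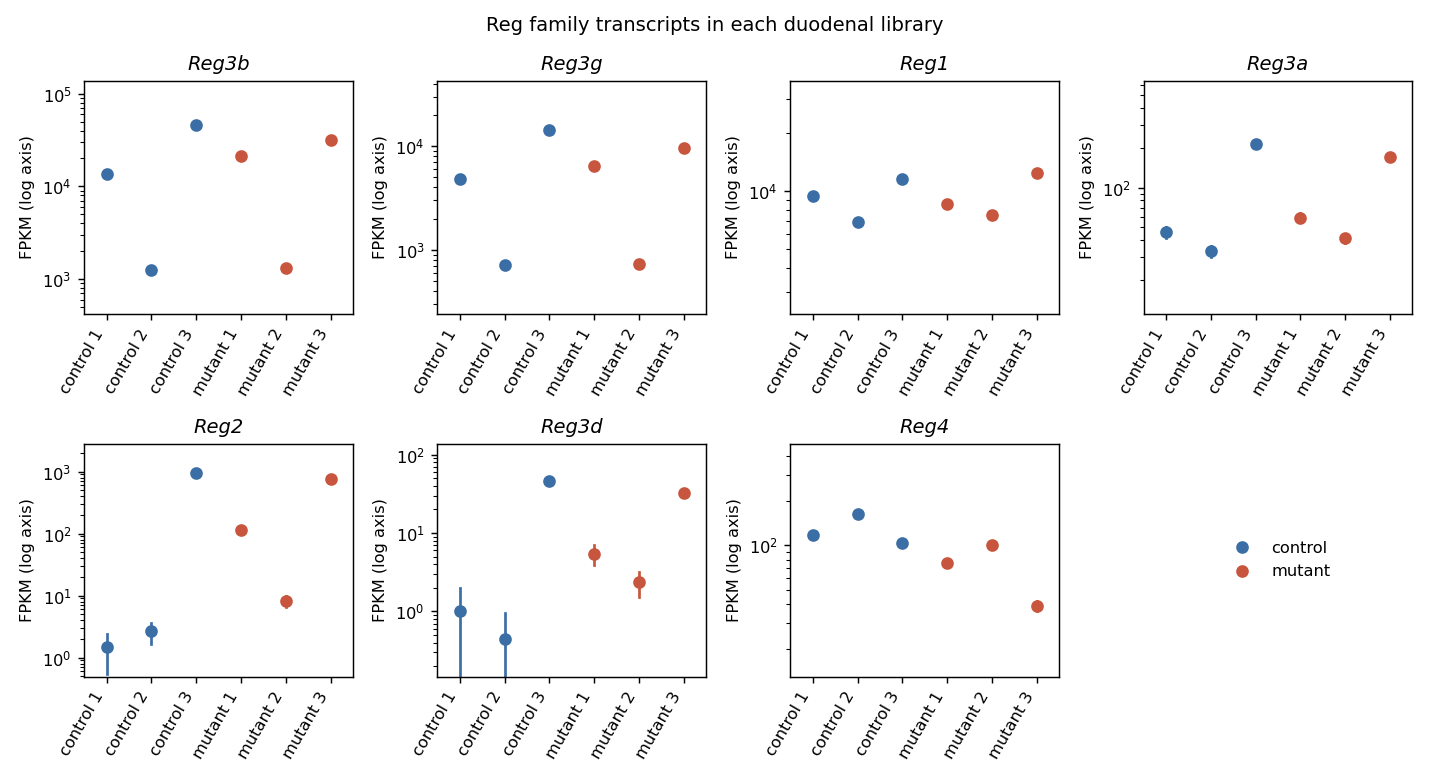
FPKM (log axis, range set for each gene) of the 7 Reg genes in each library, with control libraries in blue and mutant libraries in red. Bars are the authors' confidence intervals, cut where they run below the axis. Reg3b and Reg3g are low in control 2 and mutant 2 (1256 and 1308 FPKM for Reg3b), while Reg1 stays between 6898 and 12428 FPKM.

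The rows most like Reg3b and Reg3g were sought among 12570 rows with a mean of at least 1 FPKM. Likeness was the root mean square difference between log2(FPKM + 0.1) values over the 6 libraries, each row centred on its own mean. Reg3g was the nearest row to Reg3b, at 0.4, followed by B3galt5 at 0.54 and Bcl2l15 at 0.56. For Reg3g the nearest were Bcl2l15 at 0.29, B3galt5 at 0.37 and Reg3b at 0.4. Bcl2l15, a member of the Bcl2 family, had 17.1, 3.39 and 64.7 FPKM in controls and 38.2, 3.87 and 33.4 FPKM in mutants. B3galt5, a galactosyltransferase, had 21.6, 1.74 and 28.3 FPKM in controls and 19.8, 1.76 and 21.1 FPKM in mutants. In both genes control 2 and mutant 2 were the lowest libraries. Reg3g was 168 to 287 times Bcl2l15 in every library, a 1.7-fold range, while Reg3g itself ranged 19.7-fold. Both genes were picked for likeness over these same libraries, so the shared low libraries and the narrow ratio follow from that choice.

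**Figure D2:**
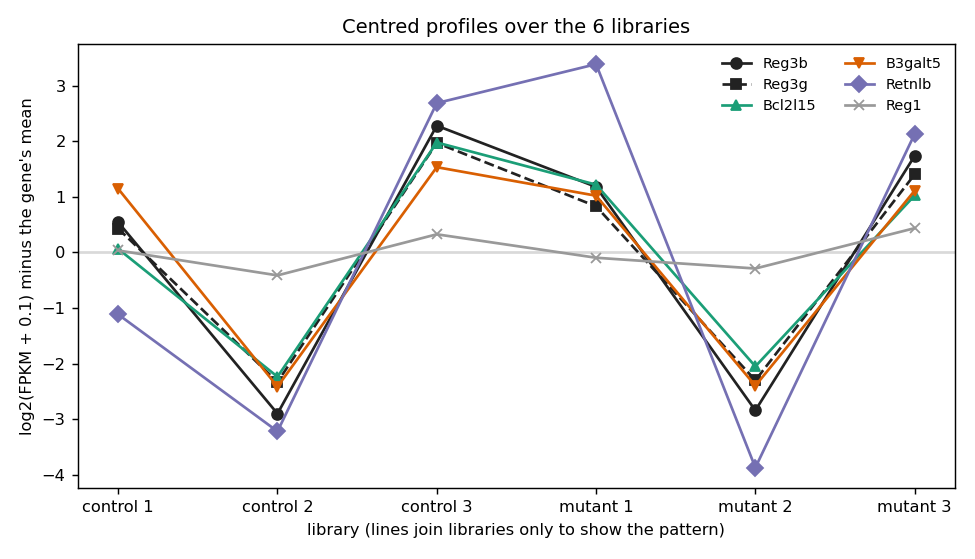
Values of log2(FPKM + 0.1) minus the mean of each gene (vertical axis) in the 6 libraries (horizontal axis) for Reg3b, Reg3g, their nearest rows, Retnlb and Reg1. Reg3b, Reg3g, Bcl2l15, B3galt5 and Retnlb are lowest in control 2 and mutant 2, and Reg1 varies less.

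Reg1, a lithostathine, was abundant and the least variable member, though 91.3% of 12570 rows had a smaller within-group SD of log2 values. It had 9408, 6898 and 11513 FPKM in controls and 8595, 7515 and 12428 FPKM in mutants, a 1.8-fold range (1.36-fold over the 4 libraries of low Xist), and ranked between 3 and 7 among all rows in every library. The groups overlapped, with means ± SD (n = 3 each) of 9273 ± 2310 FPKM for controls and 9513 ± 2581 FPKM for mutants. Its nearest rows were Tspan1, a tetraspanin, at 0.06, the row Gm15284 at 0.07 and Rhob, a small GTPase, at 0.08. Reg1 lies between Reg2 and Reg3g in the cluster, and its difference in pattern from Reg2 was 3.49 by the same measure, larger than from any other member. The order of the abundant members changed with the library. Reg3b was above Reg1 in 4 libraries and at 0.182 and 0.174 of Reg1 in control 2 and mutant 2. Reg3g exceeded Reg1 in control 3 alone, by a ratio of 1.23.

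**Figure D3:**
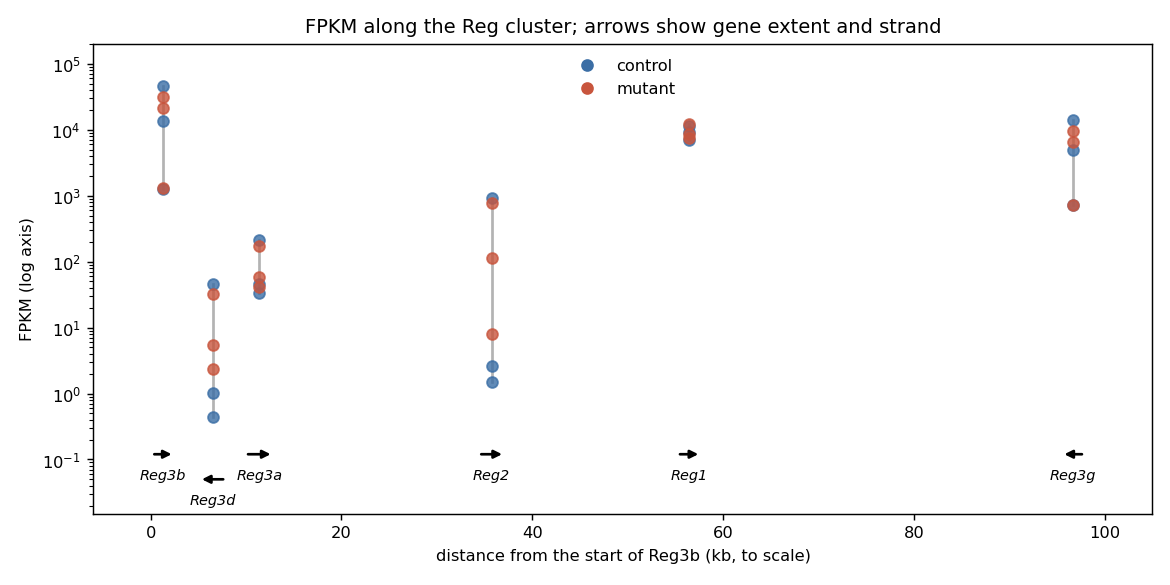
FPKM (log axis) of the 6 clustered genes in each library, placed by distance in kb from the start of Reg3b. Arrows give extent and strand, each point is 1 library, and grey lines join the lowest and highest. Reg1, 55.1 kb from the start of Reg3b, spans 6898 to 12428 FPKM, while Reg2, 34.3 kb from it, spans 1.47 to 935 FPKM.

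Reg3a, another lectin of the Reg3 group, was measured at a lower level. It had 45.8, 33.1 and 214 FPKM in controls and 59.2, 41.3 and 172 FPKM in mutants. Its libraries had the order of Reg3b, but control 3 and mutant 3 stood out and the other 4 differed by 1.79-fold at most. Reg3b was 298, 38 and 213 times Reg3a in controls and 359, 31.7 and 182 times in mutants, so the genes did not keep a fixed ratio. Its nearest rows were Fkbp5, a co-chaperone of steroid receptors, at 0.24, the alpha-defensin Defa4 at 0.26 and the heat shock gene Hspa1a at 0.36. Fkbp5 had 16.7, 14.2 and 77.5 FPKM in controls and 25.1, 24.4 and 64.6 FPKM in mutants, again highest in control 3 and mutant 3. Xist was high in the same libraries, and its part in the levels of Reg3a was not tested.

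Reg2, a lithostathine, had the widest range of the family. It had 1.47, 2.65 and 935 FPKM in controls and 114, 8.13 and 767 FPKM in mutants. Control 3 and mutant 3 were high, mutant 1 was between, and the other 3 libraries were low. The highest was 635 times the lowest, with about 10 implied reads in control 1 and 8930 in control 3. Of the 12570 rows with a mean of at least 1 FPKM, 99.9% had a smaller within-group SD of log2 values than Reg2. In the 4 libraries of low Xist the range was still 77.5-fold.

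Reg3d, related to the islet neogenesis-associated protein, had a similar pattern at a lower level. It had 1.02, 0.441 and 45.8 FPKM in controls and 5.43, 2.37 and 32.1 FPKM in mutants. The interval reached 0 FPKM in control 2 and ran from 0.0643 to 1.98 FPKM in control 1, where 4.6 reads were implied, so these libraries could not be ordered at this depth. The range was 104-fold over all libraries and 12.3-fold over the 4 of low Xist. Nearly all of its FPKM in mutant 3 came from transcript NM_013893 of 782 bases, at 31.5 FPKM, against 0.647 FPKM for NM_001161741 of 644 bases. In control 1 the authors' estimate instead gave all 1.02 FPKM to NM_001161741, with an interval of 0.097 to 1.95.

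Acinar transcripts varied beside Reg2 and Reg3d. Ctrb1, chymotrypsinogen B1, had 4.61, 87.3 and 2171 FPKM in controls and 727, 648 and 3027 FPKM in mutants. Cela2a, an elastase, had 2.22, 63.3 and 1618 FPKM in controls and 388, 495 and 1787 FPKM in mutants. The summed level of the 26 listed acinar genes ran from 1859 to 13841 FPKM in controls and from 4796 to 15820 FPKM in mutants. Spink3, which the duodenum also makes, was at 1278 to 1873 FPKM in all 6 and dominated the low sums, and Ptf1a, an acinar transcription factor, was listed at 0 in controls 1 and 2. The nearest row to Reg2 was Reg3d, at 1.56, then the acinar genes Pla2g1b and Cuzd1, each at 1.67. The nearest to Reg3d were Gp2, the main membrane protein of zymogen granules, at 0.87, Erp27 at 0.93 and the cholecystokinin receptor Cckar at 0.97. The part of acinar RNA in these levels was not tested.

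Reg2 did not keep a fixed ratio to Ctrb1. The ratio was 0.319, 0.0304 and 0.43 in controls and 0.157, 0.0125 and 0.253 in mutants, a 34.3-fold range. Mutant 1 and mutant 2 had like levels of Ctrb1, while Reg2 was 14 times as high in mutant 1. Reg1 was 6387 times Reg2 in control 1 and 12.3 times in control 3. In control 1, where Ctrb1 was lowest at 4.61 FPKM, Reg1 had 9408 FPKM and Reg3b 13679 FPKM.

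**Figure D4:**
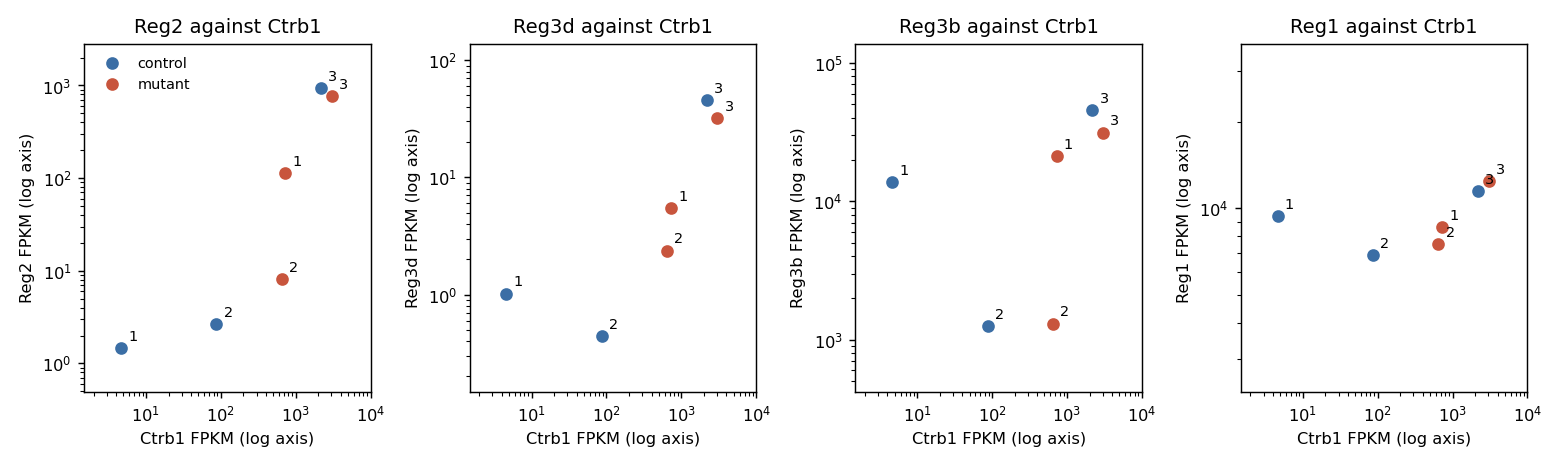
FPKM of Reg2, Reg3d, Reg3b and Reg1 (vertical log axes) against FPKM of Ctrb1 (horizontal log axis), with 1 point per library labelled by its number in the group. Mutant 1 and mutant 2 have like Ctrb1 levels (727 and 648 FPKM) and differ in Reg2 (114 and 8.13), and Reg1 is at 6898 FPKM or more at each Ctrb1 level.

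Reg4, the member outside the cluster, had 117, 162 and 104 FPKM in controls and 75.8, 100 and 38.8 FPKM in mutants. Every mutant lay below every control, although the interval of mutant 2, 95.7 to 104 FPKM, overlapped that of control 3, 99 to 109 FPKM. Means ± SD (n = 3 each) were 128 ± 30.3 FPKM for controls and 71.5 ± 30.8 FPKM for mutants, a ratio of 0.56. Against libraries of the same number, mutants had 0.645, 0.618 and 0.373 of the control level. The range was 4.17-fold over all libraries and 2.14-fold over the 4 of low Xist. Reg4 was the 1 member of 7 with groups that did not overlap. Among all 15864 rows tested, 9.92% had every mutant below every control and 3.13% every mutant above, and this contrast was among the values that chose the members.

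Markers of the cells known to make Reg4 gave mixed values. Of 13 tested enteroendocrine genes, 6 had every mutant below every control and 2 every mutant above. None passed an adjusted p of 0.05 in limma (8 had an unadjusted p under 0.05). Among all rows tested, 9.92% had every mutant below, 3.13% every mutant above and 5.81% an unadjusted p under 0.05. The summed level of the enteroendocrine genes was 581 to 684 FPKM in controls and 660 to 793 FPKM in mutants. Chga, chromogranin A, named after its values were seen, averaged 36.1 ± 3.93 FPKM (SD, n = 3) across controls and 15.5 ± 2.62 FPKM across mutants. Its log2 difference was -1.23 (SE 0.14, limma adjusted p = 0.284, or 0.031 when replicate number was a block). The other lower genes without overlap were Tac1, Chgb, Tph1, Neurod1 and Rfx6, at -0.95, -0.73, -0.71, -0.52 and -0.41. The higher genes without overlap were Cck and Ghrl, at 0.85 and 0.7. All of these were also named after their values were seen. The most abundant listed genes were Gip, Sct and Sst, hormones of other enteroendocrine cells, at log2 differences of 0.23, 0.35 and 0.13 (limma adjusted p = 0.858, 0.786 and 0.873). Of 9 tested goblet genes, 1 had every mutant below every control, and the sums were 7588 to 9861 FPKM in controls and 8358 to 10137 FPKM in mutants. Zg16, Tff3 and Spink4, the most abundant of these, had log2 differences of 0.09, 0.13 and 0.17. The nearest rows to Reg4 were Tceal1 at 0.19 and Gm8801 and H2-T10, each at 0.27, and the part of these cells in the level of Reg4 was not tested.

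Between the groups, the log2 differences of the other 6 members were smaller than the SE of a fit without replicate numbers. The log2 differences, mutant minus control on the log2(FPKM + 0.1) scale, were 0.05 (SE 1.61) for Reg3b, -0.05 (SE 1.31) for Reg3g, 0.03 (SE 0.3) for Reg1 and 0.12 (SE 0.79) for Reg3a. They were 2.49 (SE 2.68) for Reg2 and 1.33 (SE 1.73) for Reg3d. With the acinar level as a covariate the direction turned for both, to -1.3 (SE 1.46) for Reg2 and -0.96 (SE 1.17) for Reg3d. That fit also gave -1.05 (SE 1.8) for Reg3b, -0.98 (SE 1.44) for Reg3g, -0.89 (SE 0.58) for Reg3a and -0.16 (SE 0.36) for Reg1. Reg2 and Reg3d had lower means in mutants all the same (ratios of means 0.947 and 0.846), since control 3 set the control mean. Reg4 had -0.91 (SE 0.35), which with 1 library left out ran from -1.21 to -0.53. Reg2 moved to 5.43 without control 3 and to 0.82 without control 1. Reg3d moved to 3.29 without control 3 and to 0.09 without control 2. In the 4 libraries of low Xist the differences were 3.88 (SE 1.22) for Reg2 and 2.25 (SE 0.52) for Reg3d. In these libraries they were 0.35 (SE 1.68) for Reg3b, 0.21 (SE 1.32) for Reg3g, 0.34 (SE 0.23) for Reg3a and -0.66 (SE 0.21) for Reg4. This subset was set after the data were seen. Controls 1 and 2 held about 10 and 27 implied reads of Reg2, and 4.6 and 2.9 of Reg3d. Their mean centred log2 acinar level was -4.669 and -1.714, against 0.868 and 0.524 in mutants 1 and 2. The part of the acinar level in these differences was not tested.

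Control 3 and mutant 3 were both above the other 4 libraries in 6 members and in 7.42% of rows with a mean of at least 1 FPKM. Control 2 and mutant 2 were both below the other 4 in Reg1, Reg3a, Reg3b and Reg3g, and in 6.24% of those rows. For Reg3b the mutant over control ratio was 1.55, 1.04 and 0.686 for numbers 1, 2 and 3, and for Reg3g it was 1.32, 1.02 and 0.676. For Reg1 it was 0.914, 1.09 and 1.08, and for Reg3a 1.29, 1.25 and 0.803. Reg2 differed most within a number, by ratios of 77.5, 3.06 and 0.821, and Reg3d had ratios of 5.31, 5.38 and 0.702. Fitted with a replicate block, the log2 differences stayed the same and the SE was 0.27 for Reg3b, 0.21 for Reg3g, 0.14 for Reg3a, 0.18 for Reg1 and 0.16 for Reg4. It was 1.15 for Reg2 and 0.56 for Reg3d, whose differences of 2.49 and 1.33 then exceeded their SE, with number 3 lower and numbers 1 and 2 higher in the mutant. In the authors' deposited table the fold was 0.58 for Reg4 and between 0.85 for Reg3d and 1.06 for Reg1 for the rest.

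**Figure D5:**
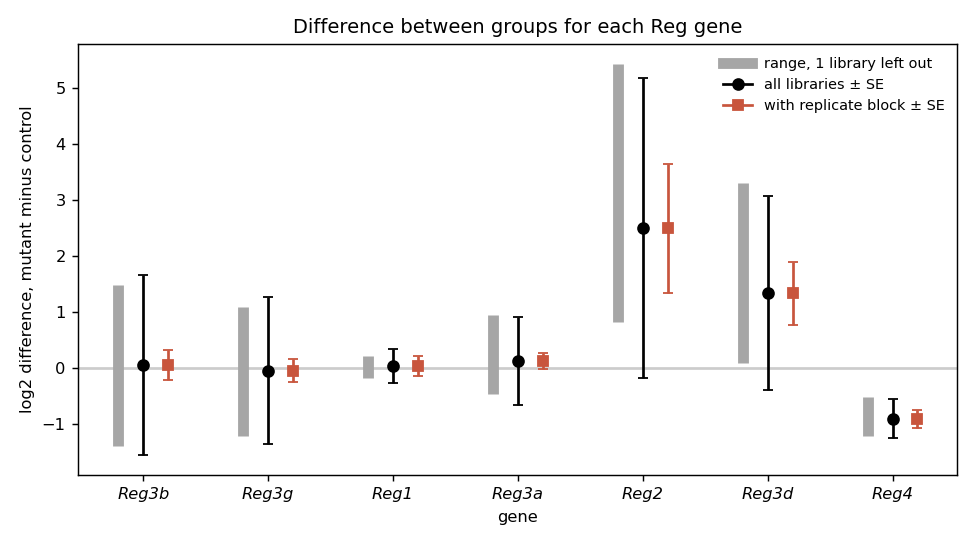
Log2 differences, mutant minus control, for each Reg gene (horizontal axis) over all libraries (black, ± SE) and with the replicate number as a block (red, ± SE). Grey bars span the values with 1 library left out, from -1.39 to 1.48 for Reg3b and from -1.21 to -0.53 for Reg4.

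Of the genes that act upstream of the Reg3 genes, 4 cytokines and 17 receptors and transducers were tested. By limma none of these had an adjusted p under 0.05, while 1 (Il6st, lower in mutants) had an unadjusted p under 0.05. Il22, the cytokine that induces Reg3 genes, was at most 0.136 FPKM and was listed at 0 in controls 1 and 2. Il6 was listed at 0 in each library, and Lif, Osm and Il11, the most abundant of the 8 cytokines, had log2 differences of -0.15, 0.01 and 0.41. Il22ra1, the receptor subunit of epithelium, had 31.1, 35.5 and 24.3 FPKM in controls and 23.4, 30.7 and 21.7 FPKM in mutants. Stat3 averaged 47.1 ± 4.97 FPKM (SD, n = 3) across controls and 45.2 ± 3.81 FPKM across mutants, a 1.28-fold range over the 6 libraries in which Reg3b ranged 36.3-fold. Il10rb and Il17rc, the other abundant members, ranged 1.26-fold and 1.31-fold. Extl3, a proposed receptor of Reg proteins, averaged 6.36 ± 0.447 FPKM (SD, n = 3) across controls and 5.94 ± 0.657 FPKM across mutants. Socs3, a target of Stat3 named after its values were seen, had 17.6, 8.23 and 19.1 FPKM in controls and 19.4, 9.16 and 16.9 FPKM in mutants, and was lowest in control 2 and mutant 2 like Reg3b. The part of Stat3 and the other upstream genes in the levels of Reg3b was not tested.

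Other inducible defence genes of the epithelium ranged by very different factors, from 1.24-fold for Nlrp6 to 156-fold for Retnlb among those above 0 in each library. Retnlb, the secreted antibacterial resistin-like molecule beta, had 35.1, 8.09 and 491 FPKM in controls and 798, 5.11 and 334 FPKM in mutants, with control 2 and mutant 2 lowest. Dmbt1, a mucosal scavenger receptor protein, had 850, 493 and 1090 FPKM in controls and 671, 537 and 822 FPKM in mutants, with the same libraries lowest. Pigr, the polymeric immunoglobulin receptor, averaged 2293 ± 261 FPKM (SD, n = 3) across controls and 1977 ± 125 FPKM across mutants, a 1.33-fold range. Of the 31 upstream and defence rows with a mean of at least 1 FPKM, 7 had control 2 and mutant 2 below the other 4 libraries, or 22.6%, beside 6.24% of all rows at that level. In 6 of the 31, or 19.4%, control 3 and mutant 3 were above the other 4 libraries, beside 7.42% of all rows. Both patterns were counted after the values of the members were seen.

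Of the 44 upstream and defence genes, 39 were tested, and limma called none of them at an adjusted p of 0.05. At an unadjusted p under 0.05, 1 was higher and 1 lower in mutants, and the groups did not overlap for 1 higher gene (Cxcl1) and 2 lower genes (Il6st and Jak1). Their median log2 difference was -0.1, and that of all rows tested was -0.05. Groups did not overlap in 3.13% of all rows tested with mutants above, and in 9.92% with mutants below. Among all rows, 0% passed the adjusted p, and 5.81% had an unadjusted p under 0.05, with 1.49% higher and 4.32% lower in mutants (237 and 685 rows). Trimmed mean scaling turned that division into 526 rows higher and 383 lower, and quantile normalization into 360 and 431.

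Paneth cells, which can also make Reg3 proteins, were described by 10 genes. Their summed level was 17371 to 22959 FPKM in controls and 17529 to 23539 FPKM in mutants. Defa24 and Defa17, alpha-defensins, ranged 1.43-fold and 1.23-fold over the libraries and Lyz1, lysozyme, 2.74-fold. None of the 10 had groups that did not overlap, beside 13.1% of all rows tested. Enterocyte genes summed to 23458, 37075 and 25433 FPKM in controls and 32855, 37645 and 27403 FPKM in mutants, highest in control 2 and mutant 2, where Reg3b was lowest. The most abundant were Apoa1, Fabp1 and Apoa4, which ranged 1.41-fold, 1.91-fold and 2.48-fold. Apoa4, an apolipoprotein of absorptive cells, had 3847, 7524 and 3248 FPKM in controls and 7154, 8060 and 3556 FPKM in mutants. Mutant 1 had 7154 FPKM of Apoa4 and 21242 FPKM of Reg3b. The part of enterocyte RNA in the levels of Reg3b was not tested.

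The family as a whole took a varying share of each library. The 7 genes made up 4.5%, 1.42% and 10.5% of summed FPKM in controls and 5.46%, 1.51% and 7.61% in mutants. Reg1, Reg3b and Reg3g gave 97.8% to 99.4% of that share in each library. Control 3 and mutant 3 were the highest and control 2 and mutant 2 the lowest.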

How the data were processed

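Libraries of total RNA (TruSeq RNA kit, RNA integrity number above 8, per the labels' protocols) gave 1 table of genes and 1 of RefSeq transcripts each. The submitters' processing notes name build mm9 and the tools CASAVA (1.8.2), TopHat, Cufflinks and DESeq, without further versions. Per the file headers, the authors deposited FPKM with confidence bounds, coverage (mean read depth) per transcript, and a comparison table with group means of normalized counts (a signal), the fold as a ratio, its log2 value and p-values. Locus starts were shifted by 1 to be 1-based.

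All 23699 rows were read, and 15864 with a mean of at least 0.1 FPKM were fitted with limma 3.58.1 in R 4.3.3 (trended variance, log2(FPKM + 0.1), no rescaling, Benjamini-Hochberg over all rows, threshold 0.05). The 31 rows with a failed estimate in any library stayed in. The fit was tested on simulated data. Implied reads are the square of 2 times FPKM over the distance to its upper bound, which lies 2 SE above. For genes of 1 transcript under 500 such reads, 87.8% to 88.2% were within 0.05 of a whole number. These intervals cover counting error only.

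Members and lists were chosen with earlier results of these data known. Named genes were the members, up to 3 of each list by mean FPKM, Extl3, Il22, Il22ra1, Stat3, any list gene passing the adjusted p, and the 3 rows nearest to each member. Replicate numbers come from the titles. Deviations of same-numbered libraries from their group means correlated at 0.11, 0.21 and 0.39 over 15864 rows. The numbers were therefore treated as pairing the libraries in an alternative fit. Control 1 also correlated with mutant 2 at 0.13, and control 2 with mutant 1 at 0.06. These correlations thus do not settle the pairing of numbers 1 and 2. Alternatives were other pseudocounts, filters and scalings, no trend, the replicate block, an acinar covariate, each library left out and, added after the data were seen, a term for Xist above 10 FPKM and the libraries below it. Alignments and motif searches used Biopython 1.88 and Python 3.11.15.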

Additional observations from a re-analysis of the deposited data

How the results depend on the processing

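No row passed an adjusted p of 0.05 in the limma fit (922 had an unadjusted p under 0.05), and this held for the other pseudocounts, filters and scalings, without trend and with the acinar covariate. The count was 2 with the replicate block (Chga and Mt1), 1 with the Xist term, 1 in the libraries of low Xist and between 0 and 3 with 1 library left out (2 without control 2, 3 without mutant 1, 2 without mutant 2). No upstream or defence gene passed in any of them. With no filter 1362 rows had an unadjusted p under 0.05. The replicate block changed no other call on a gene named here.

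Each member's log2 difference moved by less than 1 within-group SD in all 17 alternatives, a wide measure for Reg2 (SD 4.29) and Reg3d (SD 2.77). Leaving out 1 library cannot move a group mean by that much. The replicate block and the Xist term cannot change these differences at all. Small moves in those fits are therefore no measure of stability. Reg4 was negative in all 17, from -1.21 to -0.53. With libraries left out this sign was fixed, since every mutant lay below every control. Reg2 and Reg3d were positive in 16 of 17 and turned to -1.3 and -0.96 with the acinar covariate, which also moved Reg3b to -1.05, Reg3g to -0.98 and Reg3a to -0.89. With 1 library left out Reg3b ran from -1.39 to 1.48, Reg3g from -1.22 to 1.09, Reg1 from -0.18 to 0.21 and Reg3a from -0.47 to 0.94. In the 4 libraries of low Xist the values were 3.88 for Reg2, 2.25 for Reg3d and -0.66 for Reg4. The cause was not tested. Depth limits Reg3d in controls 1 and 2 and Reg2 in control 1. The precision for Reg3b and Reg3g depends on the design, with SEs of 1.61 and 1.31 without the replicate block and 0.27 and 0.21 with it.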
